A study of Homo sapiens with 7 samples.

Results

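The 9 genes described here form the receiving end of the Hedgehog pathway: the receptor PTCH1, the co-receptors BOC and GAS1, the decoy receptor HHIP, the transducer SMO, the inhibitor SUFU and the transcription factors GLI1, GLI2 and GLI3. They were taken by gene symbol from a table of log2 intensities with 24000 rows, of which 19125 could be named, for 17217 genes in all. Each of the 9 genes was read by 1 row, so the value of the row is also the value of the gene. The cells were untreated Daoy cells, an established human medulloblastoma line whose genotype is given as WT, kept in serum-containing MEM medium (Richter modification) with penicillin and streptomycin. Total RNA labelled with Cy3 was hybridised to 7 arrays, 4 of biological replicate 2 and 3 of biological replicate 1. Per the design text each replicate was used on a 4-plex array, so the replicate and the array it was hybridised to cannot be told apart.

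In vertebrates, a Hedgehog ligand (SHH, IHH or DHH) binds PTCH1 together with a co-receptor, BOC, CDON or GAS1, and thereby lifts the block that PTCH1 places on SMO. SMO then moves into the primary cilium, GLI2 and GLI3 are released from SUFU and are no longer cut into repressors, and GLI target genes are transcribed, among them GLI1, PTCH1 and HHIP themselves. The pathway drives the growth of cerebellar granule neuron progenitors and is active in one of the molecular subgroups of medulloblastoma, where PTCH1, SMO and SUFU are recurrently mutated.

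PTCH1 is shown first because its promoter carries a GLI motif and because it is a target of the pathway as well as its receptor. Motifs were searched in RefSeq promoter windows of GRCh38.p14, each running 250 bases before to 50 bases after an annotated start. The motif was the 9-base GLI consensus GACCACCCA, read on both strands, whose reverse complement is TGGGTGGTC. Of 13 windows that belong to 7 of the 9 genes, 1 held the motif, against 0.236% of all 35116 windows. It was 1 of the 5 windows of PTCH1, and the motif ended 163 bases before the start. Its upstream part, chr9:95509267-95509516 on the minus strand, is printed 5′ to 3′ with the motif in capitals.
PTCH1 promoter: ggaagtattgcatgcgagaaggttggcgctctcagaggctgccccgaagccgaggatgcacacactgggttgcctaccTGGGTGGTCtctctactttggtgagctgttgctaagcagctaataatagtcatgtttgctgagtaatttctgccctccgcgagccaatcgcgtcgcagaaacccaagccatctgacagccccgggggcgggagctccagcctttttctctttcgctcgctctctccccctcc

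When 1 mismatch was allowed, 3 of the 13 windows matched, against 6.74% of all windows, and all 3 belonged to PTCH1. The further site lay in 2 overlapping windows. The perfect site (chr9:95509420-95509448, printed here from the plus strand) and this second site (chr9:95507393-95507421, minus strand) are both turned so that the motif reads as GACCACCCA and their bases can be compared. Capitals mark bases that equal the motif.
PTCH1 perfect site: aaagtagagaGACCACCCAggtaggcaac
PTCH1 second site: cagggaaggcGAgCACCCAgacgggggcc

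Such a match is a string of letters in a window and was not examined for binding. Which of the 5 starts serves the transcript on the array was not examined either. GLI1 and GLI3 had no window and were not searched. Outside the members, the exact motif was in 0 of 16 genes reported elsewhere as GLI targets that had a window. It was in 1 of 40 primary cilium genes, TMEM216, and in no gene of the other pathway lists described below. Counted by gene, 0.297% of all 27305 symbols with a window held the exact motif. Windows of 1 gene can overlap, so the window counts are not independent.

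Of the 9 genes, 7 lay above background in Daoy cells: PTCH1, BOC, GAS1, SMO, SUFU, GLI2 and GLI3. GLI1 and HHIP lay below it. The same 7 genes exceeded the background of each replicate taken alone. Background was set at 7.54, which 95% of 364 olfactory receptor genes, taken here as silent in these cells, do not exceed, and 60.6% of all named genes exceeded it. In the separate replicates it was 7.24 for biological replicate 2 and 7.79 for biological replicate 1. Intensity also depends on how well the probes of a row hybridise, so the levels of different genes are not ranked against each other. A level below background does not show that a transcript is missing. In a bulk extract, fewer cells that express a gene cannot be told apart from less of its RNA per cell.

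Between the replicates, SUFU rose and GLI2, BOC and PTCH1 fell, while the other 5 genes did not pass the test. These 4 of 9 genes (44.4%) stand beside a background in which 49.8% of all named genes passed, 25.5% higher and 24.2% lower in biological replicate 2. With the array number as a block, which pairs the arrays, 3 of 9 members (33.3%) were called, beside 54.6% of all genes. Array 3 of replicate 2 has no partner in replicate 1, so the blocked fit compares only arrays 1, 2 and 4 of each replicate. In neither fit was the share of members called above that of all genes. For these same 4 genes the values of replicate 2 and replicate 1 were fully separate, which was so for 52.4% of all genes. The test was limma's moderated test over all named genes, replicate 2 minus replicate 1, with Benjamini-Hochberg adjusted p and a threshold of 0.05. The arrays of a replicate were taken to be technical repeats of 1 extract, which the labels do not state. Under this assumption each p measures only the spread between arrays, and the biological comparison is of 1 extract with 1 extract.

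**Figure D1:**
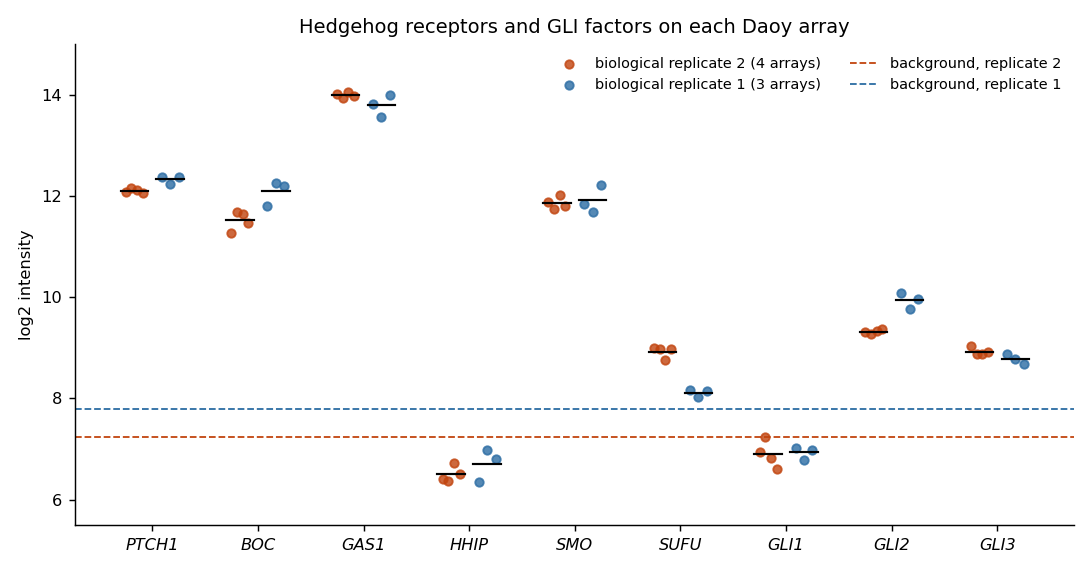
Log2 intensity of the 9 genes on every array, with 4 arrays of biological replicate 2 at the left and 3 arrays of biological replicate 1 at the right of each gene. Points are arrays, black bars are means and dashed lines are the background of each replicate (7.24 and 7.79). HHIP and GLI1 lie under the lines, and the replicates separate for PTCH1, BOC, SUFU and GLI2.

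PTCH1, the receptor that keeps SMO silent without ligand, was well above background, at 12.22 ± 0.16 (SD, n = 2 replicates). It read 12.08, 12.15, 12.11 and 12.06 on arrays 1 to 4 of biological replicate 2, against 12.38, 12.24 and 12.38 on arrays 1, 2 and 4 of biological replicate 1. Every array of replicate 2 was below every array of replicate 1, but by a small step. PTCH1 fell by 0.23 ± 0.08 (SE), or 1.17-fold, with an adjusted p of 0.0455 (limma). The call was lost in the blocked fit, which pairs arrays by number (adjusted p = 0.069), in the fit over all 24000 rows (adjusted p = 0.051), and when any of 6 arrays was left out (adjusted p = 0.0586 to 0.122). A difference of at least this size was found in 61.5% of all genes.

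BOC, an immunoglobulin and fibronectin repeat protein that presents ligand to PTCH1, was at 11.80 ± 0.41 (SD, n = 2). Arrays 1 to 4 of biological replicate 2 gave 11.27, 11.67, 11.65 and 11.47, against 11.81, 12.25 and 12.20 on arrays 1, 2 and 4 of biological replicate 1. In both replicates array 1 gave the lowest value, and the groups stayed apart. BOC fell by 0.57 ± 0.14 (SE), or 1.49-fold (limma, adjusted p = 0.00836), and its adjusted p ran between 0.00151 and 0.0349 over 12 alternatives.

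GAS1, a membrane-anchored co-receptor first described as a growth arrest gene, had an intensity of 13.89 ± 0.14 (SD, n = 2). It read 14.01, 13.93, 14.04 and 13.97 on the arrays of biological replicate 2, against 13.82, 13.56 and 14.00 on those of biological replicate 1. The groups overlapped through array 4 of replicate 1. The difference of 0.19 had a 95% interval of -0.06 to 0.44 (limma, adjusted p = 0.182).

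HHIP, a cell surface protein that binds ligand and withholds it from PTCH1, was below background on all 7 arrays. Its values were 6.41, 6.37, 6.73 and 6.51 on the arrays of biological replicate 2, against 6.35, 6.97 and 6.80 on those of biological replicate 1. The groups overlapped, and no size of change is given for a gene at this level (limma, adjusted p = 0.303).

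SMO, the receptor-like transducer that PTCH1 inhibits, stood at 11.89 ± 0.03 (SD, n = 2). Biological replicate 2 gave 11.88, 11.74, 12.02 and 11.80, against 11.85, 11.67 and 12.21 in biological replicate 1. Values within each replicate spread over more than the difference between the means. That difference was -0.05, with a 95% interval of -0.35 to 0.26 (limma, adjusted p = 0.794), and it turned to 0.10 without array 4 of replicate 1.

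SUFU, which holds GLI proteins in the cytoplasm and restrains them, was the member that rose. It read 8.99, 8.98, 8.77 and 8.97 on arrays 1 to 4 of biological replicate 2, against 8.16, 8.03 and 8.15 on arrays 1, 2 and 4 of biological replicate 1. All values of replicate 2 were above all values of replicate 1, and those of replicate 1 were near that replicate's background of 7.79. The rise was 0.81 ± 0.09 (SE), or 1.75-fold (limma, adjusted p = 0.000125). It held in the blocked fit (0.86, adjusted p = 0.00038) and over all 12 alternatives, in which it ran between 0.77 and 0.86. At least as large a difference was found in 15.3% of all genes. Over both replicates SUFU averaged 8.52 ± 0.57 (SD, n = 2).

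GLI1, a strong activator that is itself a target of the pathway and is widely used to read its activity, was below background in both replicates. It read 6.94, 7.23, 6.82 and 6.60 on the arrays of biological replicate 2, against 7.03, 6.78 and 6.99 on those of biological replicate 1. No array exceeded the background of its replicate, the nearest being array 2 of replicate 2. The replicates overlapped, and the test gave an adjusted p of 0.863 (limma).

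GLI2, the main activator downstream of SMO, was above background and lower in biological replicate 2. Its arrays there gave 9.30, 9.27, 9.33 and 9.36, against 10.08, 9.76 and 9.96 in biological replicate 1. The 4 arrays of replicate 2 lay close together and apart from those of replicate 1. GLI2 fell by 0.62 ± 0.10 (SE), or 1.54-fold (limma, adjusted p = 0.000738), and the fall ran between -0.71 and -0.55 over 12 alternatives, each past the threshold.

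GLI3, the main repressor of the family when no ligand is present, had 9.04, 8.87, 8.87 and 8.91 on the arrays of biological replicate 2, against 8.87, 8.77 and 8.68 on those of biological replicate 1. Array 1 of replicate 1 equalled the lowest array of replicate 2. Its difference of 0.15 had a 95% interval of -0.06 to 0.35 (limma, adjusted p = 0.202). Its level over both replicates was 8.85 ± 0.11 (SD, n = 2).

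**Figure D2:**
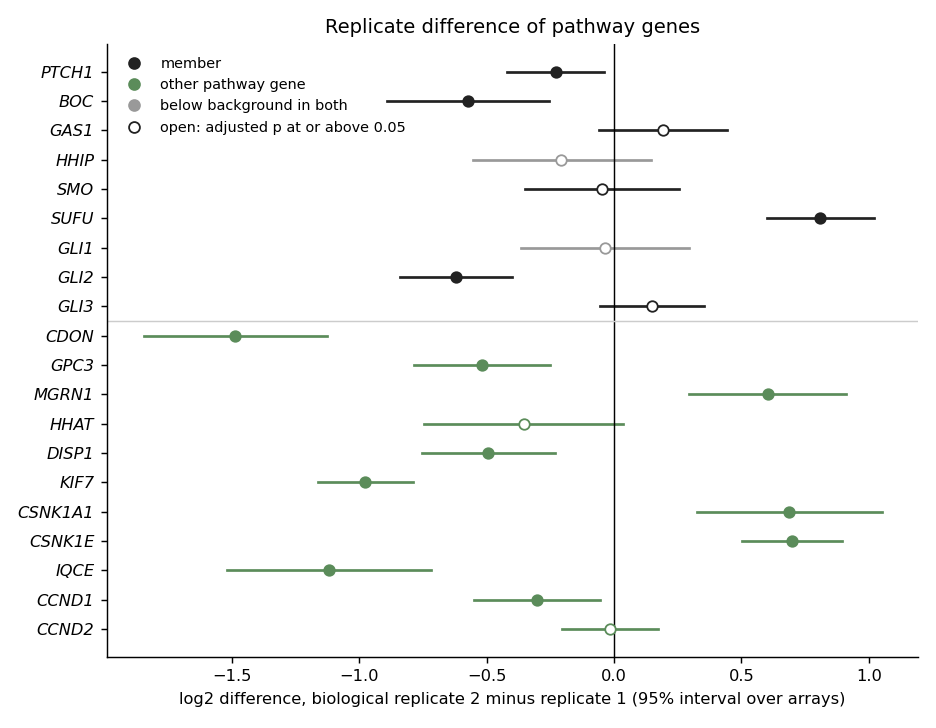
Log2 difference between biological replicate 2 and biological replicate 1 for the 9 genes (above the grey line) and for 11 further pathway genes, with 95% intervals from the spread between arrays. Filled points passed the adjusted threshold of 0.05. SUFU lies at 0.81, GLI2 at -0.62 and BOC at -0.57, and CDON, at -1.49, is the lowest of the genes drawn.

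The ligands were below background, and the enzymes and carriers that release ligand were expressed in part. In biological replicate 2 SHH read 5.87, IHH 6.26 and DHH 6.12, against 5.98, 5.72 and 5.76 for these genes in biological replicate 1. IHH and DHH passed the test (adjusted p = 0.002 and 0.0231), but both replicates were under background, so no size is given, and the DHH call ended without any 1 of 3 arrays (adjusted p = 0.0589 to 0.0876). HHAT, which attaches palmitate to the ligands, was at 9.36 ± 0.25 (SD, n = 2), and its difference of -0.35 did not pass (adjusted p = 0.12, and 0.0146 without array 2 of replicate 2). DISP1, which exports the lipid-bearing ligand, was at 8.54 in biological replicate 2 and 9.04 in biological replicate 1, a fall of 0.49 (adjusted p = 0.0063). The secreted carrier SCUBE2 was at 6.26, below background. Of these 6 genes, 2 were above background.

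Among further receptors and co-receptors, CDON fell the most. CDON, the partner of BOC in its family, read 7.07, 7.19, 6.98 and 6.81 on the arrays of biological replicate 2, against 8.64, 8.74 and 8.11 on those of biological replicate 1. It was under background in replicate 2 and above it in replicate 1, so its fall is given as a limit of at least 2.40-fold (limma, adjusted p = 7.98e-05). The glypican GPC3, which binds ligand at the cell surface, fell by 0.52 (9.01 in biological replicate 2 and 9.53 in biological replicate 1, adjusted p = 0.00557). MGRN1, a ubiquitin ligase that takes part in lowering SMO at the cell surface, was at 8.34 in biological replicate 2 and below background in biological replicate 1, a rise of at least 1.46-fold (adjusted p = 0.00537). The endocytic receptor LRP2 (5.91) was below background. In all, 1 of 6 measured genes was higher (16.7%, against 25.5% of all genes), 2 were lower (33.3%, against 24.2%) and 3 did not pass.

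Most genes that carry the signal between SMO and the GLI factors were expressed, 23 of 27 measured (85.2%, against 60.6% of all genes). Of these 27 genes, 4 were higher in biological replicate 2 (14.8%, against 25.5% of all genes) and 7 lower (25.9%, against 24.2%), and the median difference was 0.00 against -0.01 for all genes. In the blocked fit 6 were higher and 9 lower (22.2% and 33.3%, against 27.6% and 26.9% of all genes). KIF7, a kinesin of the ciliary tip that organises SUFU and GLI complexes, read 9.90 in biological replicate 2 and 10.88 in biological replicate 1. It fell by 0.97 ± 0.08 (SE, limma, adjusted p = 2.55e-05). IQCE, which ties the EVC complex of SMO to the base of the cilium, fell by 1.12 (8.86 in replicate 2 and 9.98 in replicate 1, adjusted p = 0.000767). Casein kinases that phosphorylate pathway proteins were higher, CSNK1E by 0.70 (adjusted p = 0.000189) and CSNK1A1 by 0.69 (adjusted p = 0.00638). The kinases GSK3A (12.78), GSK3B (12.67) and CSNK1D (13.04) were far above background and did not pass, although GSK3A did in the blocked fit (adjusted p = 0.02). CUL3, a ubiquitin ligase scaffold that works on GLI proteins with SPOP, was below background at 6.31. CUL3 was called lower in replicate 2 (adjusted p = 0.000602), and no size is given at this level.

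Genes of the primary cilium, the organelle in which vertebrate cells process the signal, were mostly expressed, and falls outnumbered rises. Of 44 measured genes 34 were above background (77.3%, against 60.6% of all genes). Of the 44, 18 were lower in biological replicate 2, 5 were higher and 21 did not pass. The 40.9% called lower stand beside 24.2% of all genes, and the 11.4% called higher beside 25.5%. The median difference was -0.21, against -0.01 for all genes. In the blocked fit 17 were lower and 5 higher (38.6% and 11.4%, against 26.9% and 27.6% of all genes). Without array 1 of replicate 1 the numbers were 13 lower and 3 higher, in a fit that called 7331 of all genes, against 8568 with every array. The shares of this list were not tested against other genes.

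Genes of ciliary transport and of the structure at the base of the cilium were among the falls, but these classes were not counted separately. WDR35, a subunit of the retrograde transport complex IFT-A, was at 8.0 in biological replicate 2 and 9.70 in biological replicate 1, 3.24-fold lower (limma, adjusted p = 1.37e-05). C2CD3, a centriole protein needed to begin a cilium, was at 9.18 in biological replicate 2 and 10.85 in biological replicate 1, 3.18-fold lower (adjusted p = 3.14e-05). TULP3, which brings receptors into the cilium, was at 11.73 and fell by 0.37 (adjusted p = 0.0301). This call ended without any 1 of 4 arrays (adjusted p = 0.0503 to 0.104). Rises were seen for INPP5E, a ciliary lipid phosphatase (0.67, adjusted p = 0.000833), and for FUZ, a planar polarity effector (0.47, adjusted p = 0.0167, and 0.069 without array 1 of replicate 1). IFT140 (0.46, adjusted p = 0.00482), B9D1 (0.46, adjusted p = 0.00191) and CEP290 (0.38, adjusted p = 0.0225) were called higher too. For IFT140, B9D1 and CEP290 the alternatives were not followed gene by gene. The kinesin-2 genes KIF3B and KIFAP3, at 11.12 and 10.86, did not pass.

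**Figure D3:**
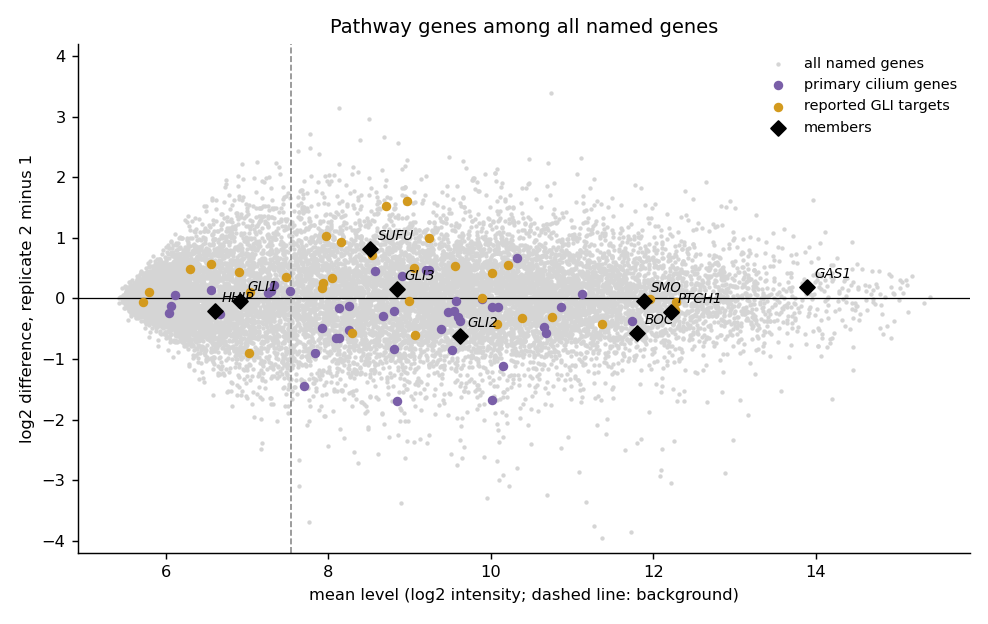
Log2 difference between biological replicate 2 and biological replicate 1 against the mean level, for all named genes (grey), primary cilium genes (purple), reported GLI targets (yellow) and the 9 members (black diamonds, named). The dashed line is the background of 7.54. The members lie within the cloud of all genes, and most purple points right of the line are below 0.

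Among genes outside the members that are reported elsewhere as GLI targets, more were called higher than lower. Of 33 measured, 24 were above background, 13 were higher in biological replicate 2 (39.4%, against 25.5% of all genes), 6 were lower (18.2%, against 24.2%) and 14 did not pass. The median difference was 0.17. In the blocked fit 14 were higher and 7 lower (42.4% and 21.2%, against 27.6% and 26.9% of all genes). With genes at or below background removed, 9 of the 24 listed genes left were higher and 5 lower. In that fit 5898 of all 10430 genes left were called in either direction. Their split into higher and lower is not given, so the list's split in that fit has no share of all genes beside it. Some of the 13 higher and 6 lower calls were thus of genes at or below background. These shares describe the list and were not tested against other genes. The list leaves out the targets PTCH1, GLI1 and HHIP, which are members. PTCH1 was called lower, and GLI1 and HHIP were below background and not called.

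The cyclin genes CCND1 and CCND2, which drive entry into the cell cycle, were expressed, at 10.75 ± 0.21 and 11.96 ± 0.01 (SD, n = 2). CCND1 fell by 0.30 (10.60 in biological replicate 2 and 10.90 in biological replicate 1, adjusted p = 0.0446), a call that ended without any 1 of 6 arrays (adjusted p = 0.071 to 0.155). CCND2 differed by -0.02, with a 95% interval of -0.20 to 0.17. MYCN, a transcription factor and target of SHH in granule neuron progenitors, was below background at 6.57 in replicate 2 and 7.47 in replicate 1. MYCN was called lower in replicate 2 (adjusted p = 0.000231), but both replicates were under background, so no size is given. The homeobox gene NKX6-1, a ventral neural tube factor, rose by 1.61 (9.77 in replicate 2 and 8.16 in replicate 1, adjusted p = 1.62e-05), and the forkhead gene FOXC2 by 1.53 (9.47 in replicate 2 and 7.94 in replicate 1, adjusted p = 1.38e-05). Falls among expressed genes were led by the cyclin CCNE1 (-0.61, adjusted p = 0.00204) and the steroid enzyme HSD11B2 (-0.58, adjusted p = 0.00476). RAB34 (12.29), a GTPase of cilium formation, and the cell cycle factor FOXM1 (12.26) were above background and did not pass, and the growth factor receptor PDGFRA (5.72) was below background.

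**Figure D4:**
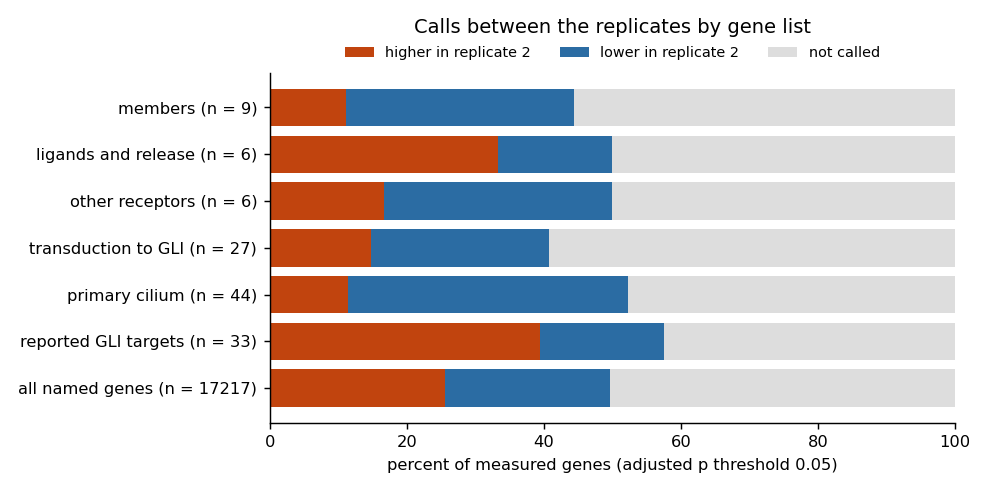
Percent of measured genes called higher (orange) or lower (blue) in biological replicate 2, or not called (grey), for the 9 members, the 5 pathway lists and all 17217 named genes. Primary cilium genes have 40.9% called lower, and reported GLI targets have 39.4% called higher, beside 24.2% and 25.5% of all genes.

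The genes whose values ran most like those of a member over the 7 arrays were found by centring each gene on its own mean and taking the root mean square distance from it among the other 10429 genes above background. For SUFU they were DEAF1 (a distance of 0.059) and QSOX1 (0.061), against a median distance of 0.451. For GLI2 they were RRAGD (0.042) and TP53BP2 (0.043), and for BOC they were MTOR and SENP5 (0.059 each). For PTCH1 they were TMED2 (0.026) and GTF2H4 (0.032), for GAS1 RING1 (0.033) and RAB3GAP2 (0.036), for GLI3 TXNDC11 (0.027) and SLC12A7 (0.031), and for SMO STX12 (0.062) and CA3 (0.075). The named genes were the nearest but were not set apart. The number of genes within 2 times the smallest distance was 177 for SUFU, 137 for SMO, 54 for GLI2 and 51 for BOC. For PTCH1, GAS1 and GLI3 that number was 27, 23 and 10. The 7 arrays come from 2 biological replicates, so the distances are a description with no p.

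Markers of granule neuron progenitors were mostly below background (12.5% above it, against 60.6% of all genes), and those of the SHH subgroup were above it in part. Of 8 markers of granule neuron progenitors, 1 was above background over both replicates, ZIC2, at 8.15 in biological replicate 2 and 7.35 in biological replicate 1, where it was below that replicate's background. None of the 8 was above background in both replicates, and ATOH1 (6.29), ZIC1 (5.87) and NEUROD1 (5.90) were below. Of 5 genes used to recognise the SHH subgroup of medulloblastoma, SFRP1 (10.22) and PDLIM3 (7.76) were above background, PDLIM3 through biological replicate 2 alone, and EYA1 (6.86), HHIP and ATOH1 were below. Of 10 mesenchymal markers 8 were above background in both replicates, and LUM and DCN were so in biological replicate 2 alone. The median of the 10 was 12.34 in biological replicate 2 and 12.24 in biological replicate 1, and 3 were called higher (30.0%, against 25.5% of all genes) and 2 lower (20.0%, against 24.2%). Of 7 measured neuron markers 4 were above background, among them NEFL (11.65) and TUBB3 (10.62), while SNAP25, STMN2 and GAP43 were below. Above background were also 3 of 7 epithelial markers, KRT8 (11.80), KRT18 (11.32) and CLDN4, the last through biological replicate 2 alone. EPCAM, CDH1, KRT5 and KRT14 were below. Of 7 glial markers 1 was above background, GFAP at 8.83, as were 2 of 5 endothelial markers and none of 8 leukocyte markers. The endothelial marker PECAM1 was above it through biological replicate 2 alone. Across the whole table the arrays correlated at 0.985 to 0.994 within a replicate and 0.948 to 0.962 between replicates.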

How the data were processed

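The authors deposited a log2 intensity for every row on every array, and each row bears a RefSeq transcript name. Per the submitters' processing notes RMA and limma were used, with no version or order given. The authors' columns had equal sorted values within 0.002, which shows quantile normalization, and each had a median of 8.15. The log base was not stated and was taken as 2, as RMA writes it, since values ran between 5.25 and 15.46. The genome build behind the rows is not given in the sources used here. No detection call or probe-level value was used, and the number of arrays limits the precision.

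Rows were named by unversioned accession through a RefSeq table of GRCh38.p14. Of 24000 rows, 19125 had 1 symbol, 0 several and 4875 none. Rows of a gene were averaged (1464 genes had more than 1 row). The level of a gene is the mean of the 2 replicate means, with its SD (n = 2). Differences were tested on the log2 scale with limma 3.58.1 in R 4.3.3 (lmFit and eBayes, all 7 arrays, replicate 2 minus replicate 1) over all 17217 named genes, and again over all rows, with Benjamini-Hochberg adjustment. The procedure was tested on simulated data. Where a gene was below background in 1 replicate, its fold was taken against the background of that replicate as a lower limit, and where it was below in both, no size is given, apart from the ranges printed to show changes of sign under the alternatives.

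Arrays with the same number in both replicates moved together around the mean of their replicate (correlations across rows of 0.211, 0.35 and 0.399 for arrays 1, 2 and 4). Of arrays with unlike numbers, array 3 of replicate 2 and array 4 of replicate 1 correlated at 0.203, and the other pairs at -0.384 to 0.009. The array number was taken to pair the arrays, from this check and from no statement in the labels. The blocked fit is given where it changed the call of a member or of another gene whose test is printed, and for the pathway lists whose counts it changed.

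The members and the gene lists were chosen with earlier results of these data known. Of the 5 pathway lists, entries with no named row (MOSMO, ULK3, DYNC2H1, TMEM231 and CC2D2A) were not analysed here. Genes were named by rule: every member, and for each list the 3 highest and the lowest level and the 2 largest called rises and falls among genes above background in at least 1 replicate. To these came CDON, KIF7, MYCN, 2 cyclins, the 3 ligands and the remaining called rises among cilium genes. For each expressed member the 2 genes of most similar pattern were added. Some genes that this rule takes are not reported here, but they count in their lists. Marker genes named in the text were chosen after their values were seen. Alternatives covered the array block, the row used per gene, a filter on dim genes, cyclic loess, an intensity trend in the variance prior, a minimum difference, other backgrounds and each array left out.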

Additional observations from a re-analysis of the deposited data

Results flagged for a closer look

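Among the 44 genes checked by Dixon's ratio over the 4 arrays of biological replicate 2, 3 had 1 array apart from the other 3, and chance flags about 5% of such groups. SUFU read 8.77 on array 3 against 8.97 to 8.99 on the others, still above every array of biological replicate 1. SHH read 6.03 on array 4 against 5.80 to 5.84, all below background. WDR35 read 7.83 on array 1 against 8.05 to 8.07. The 3 arrays of biological replicate 1 were too few for this check.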

How the results depend on the processing

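The number of members above background was 7 under all 13 alternatives tried. The number of members called was 3 or 4 under every alternative but the requirement of a difference of at least 1, which left 0 members and 1545 of 8568 genes. With the array number as a replicate block, 3 members and 9392 genes were called. The differences of the blocked fit equal those of the fit without array 3 of replicate 2, so these alternatives differ only in their p. Leaving out 1 array each time gave 3 to 4 members and 7331 to 8130 genes. SUFU, GLI2 and BOC kept their direction and stayed past the threshold under all 12 alternative fits. PTCH1 was the member whose call was lost, also with the brightest row per gene (adjusted p = 0.052), where the fit over other genes changed and its own row did not. Without array 1 of biological replicate 1, HHIP, below background in both replicates, passed the threshold (adjusted p = 0.0455). Small differences changed sign when single arrays were left out: GLI1 ranged between -0.145 and 0.065, SMO between -0.165 and 0.101, CCND2 between -0.034 and 0.019, KIF3B between -0.039 and 0.134, KIFAP3 between -0.350 and 0.059 and LRP2 between -0.144 and 0.012, none past the threshold. PDGFRA, below background, ranged between -0.231 and 0.038 and was at 0.001 with the block. For GLI1, LRP2 and PDGFRA, all below background, these ranges show only that the sign changed and are no sizes of change. The cause of these shifts was not tested. Signal over background limits GLI1, HHIP and the ligands, whose differences are not interpretable in size.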

Other observations

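The panels of the other medulloblastoma subgroups were also above background in part. Of 5 genes that mark the WNT subgroup, 3 were above background, among them the matrix glycoprotein TNC and the WNT inhibitor WIF1. WIF1 was at 8.05 in biological replicate 2 and 8.41 in biological replicate 1. Of 6 genes in each of the group 3 and group 4 panels, 2 and 2 were above background. In the group 3 panel the natriuretic peptide receptor NPR3 was at 8.84 in biological replicate 2 and below background in biological replicate 1, a rise of at least 2.06-fold (limma, adjusted p = 1.64e-05). In the group 4 panel the potassium channel KCNA1 was at 8.12 in biological replicate 2 and 9.42 in biological replicate 1 (limma, adjusted p = 1.99e-05). The netrin receptor UNC5D of the same panel was at 7.77 in biological replicate 2, above that replicate's background, and below background in biological replicate 1 (limma, adjusted p = 2.11e-05). Over both replicates UNC5D averaged 6.99, below background, so it is not among the genes counted as above it. These genes were chosen after their values were seen, and counts as small as these set no subgroup apart from another.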
